A study of Homo sapiens with 26 samples.

Results

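The 10 claudin genes CLDN1, CLDN2, CLDN3, CLDN4, CLDN7, CLDN10, CLDN12, CLDN15, CLDN18 and CLDN23 were followed through 26 RNA sequencing libraries of 3 established human pancreatic ductal adenocarcinoma cell lines. They were chosen by gene symbol, with earlier results of these data known. All 10 were found in each of the 3 tables, which together hold 62778 genes. A further 14 annotated claudin genes are described more briefly. The study changed the level of HNF4A, a nuclear receptor of gut, liver and pancreas epithelium whose gene has 2 promoters, P1 and P2, that give different protein isoforms.

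In Panc10.05 and BxPC3 an isoform was expressed from a doxycycline-inducible construct, so every library of these lines, controls included, came from cells given doxycycline. In Panc10.05 the P1-a2 isoform and the GFP control (NC) were induced with 25 ng/mL and the P2-a8 isoform with 12.5 ng/mL. In BxPC3 P1-a2, P2-a8 and the empty-vector control (NC) all received 500 ng/mL. Each of these 6 groups had 2 libraries. In AsPC-1 (ASPC1 in the labels) HNF4A was repressed by CRISPRi, in which a guide RNA brings a repressor to a promoter: guides sgP1E and sgP1J (group sgP1), sgP2D and sgP2G (sgP2), sgDual2 and sgDual3 (sgDual), and a control guide (sgNC), with 2 libraries per guide. The labels do not say whether the libraries of a group came from separate cultures or clones, so p-values measure the spread between these libraries, which may be technical. The sgP1, sgP2 and sgDual groups each pooled the libraries of 2 guides as replicates. Their spread therefore also holds differences between guides.

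Claudins are membrane proteins that span the membrane and join with claudins of the neighbouring cell to form the strands of the tight junction, which seals the space between epithelial cells. Some members, such as CLDN1, CLDN3, CLDN4 and CLDN7, are known mainly as sealing claudins, while CLDN2, CLDN10 and CLDN15 form pores that let small ions pass. CLDN18 is the claudin of stomach and lung epithelium, and the genes of sealing and pore claudins are used in different mixes along the gut. Pancreatic duct epithelium and tumours derived from it are known to express several of them.

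Total counts lay between 34618745 and 46827673 per library in Panc10.05, between 26369154 and 37483772 in BxPC3 and between 26079388 and 50662077 in AsPC-1. HNF4A, the targeted gene, was at 0.24 and 0.058 CPM (counts scaled to the library total) in the Panc10.05 controls, 10.7 and 13 CPM with P1-a2 and 37.6 CPM in both P2-a8 libraries. In BxPC3 it was at 1.08 and 0.464 CPM in controls, 9.76 and 11.6 CPM with P1-a2 and 12.6 and 14.2 CPM with P2-a8. In AsPC-1 it averaged 213 ± 9.95 CPM (SD, n = 2) with sgNC, 129 ± 18.4 (n = 4) with sgP1, 86.5 ± 7.74 (n = 4) with sgP2 and 7.99 ± 4.84 (n = 4) with sgDual. The fall was past the test in sgDual (log2 fold change -4.73, adjusted p = 6.25e-06) but not in sgP2 (-1.30, adjusted p = 0.0751) or sgP1 (-0.72, adjusted p = 0.615), each by edgeR's quasi-likelihood test. Epithelial markers EPCAM, CDH1, KRT8, KRT18 and KRT19 were present in every line, whereas KRT7 was as low as 0.503 CPM in an AsPC-1 library. Of 15 markers of fibroblasts, immune, endothelial and endocrine cells, 9 were at or below 3 counts in every Panc10.05 library, 2 in BxPC3 and 4 in AsPC-1, and their summed group level was 15 to 16.7, 24.2 to 29.8 and 158 to 293 CPM respectively. Most of the AsPC-1 sum was LUM, a fibroblast matrix gene, at 171 CPM in sgNC and 285 CPM in sgDual; its part in the results was not tested.

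Promoter windows of 250 bases before the transcription start were read from RefSeq on GRCh38.p14 for 9 of the 10 members, 13 windows in all. CLDN3 and CLDN4 are neighbours on chromosome 7, with 29.3 kb and 0 annotated genes between them. The 3 windows printed here belong to CLDN2, whose change was the largest in AsPC-1, and to CLDN3 and CLDN7, which separated the isoforms in Panc10.05. All 3 lie outside the annotated exons of the 10 members. CLDN2 has a further window before its outermost start, which holds no CAAAG and overlaps an exon of RIPPLY1, and is not printed. CLDN7 has a further window too (chr17:7262479-7262728), which holds no CAAAG, lies wholly within annotated exons of the members and is not printed. The CLDN2 window printed (chrX:106918110-106918359, plus strand) lies within a CLDN2 intron, the CLDN3 window (chr7:73770271-73770520, minus strand) just upstream of the gene, and the CLDN7 window (chr17:7263214-7263463, minus strand) within the intron of a longer CLDN7 transcript. They are given 5′ to 3′ on the gene's strand, with the sequence CAAAG, the shared core of the searched HNF4 motifs, in capitals.
CLDN2: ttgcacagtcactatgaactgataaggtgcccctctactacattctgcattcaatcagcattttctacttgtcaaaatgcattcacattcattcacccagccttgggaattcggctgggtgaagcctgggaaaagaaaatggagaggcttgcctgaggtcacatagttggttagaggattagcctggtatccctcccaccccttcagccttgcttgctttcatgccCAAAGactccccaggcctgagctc
CLDN3: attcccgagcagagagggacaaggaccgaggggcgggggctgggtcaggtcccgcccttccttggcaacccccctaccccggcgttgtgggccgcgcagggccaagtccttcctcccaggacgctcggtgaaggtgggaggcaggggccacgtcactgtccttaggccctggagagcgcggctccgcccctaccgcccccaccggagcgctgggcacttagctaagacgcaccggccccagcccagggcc
CLDN7: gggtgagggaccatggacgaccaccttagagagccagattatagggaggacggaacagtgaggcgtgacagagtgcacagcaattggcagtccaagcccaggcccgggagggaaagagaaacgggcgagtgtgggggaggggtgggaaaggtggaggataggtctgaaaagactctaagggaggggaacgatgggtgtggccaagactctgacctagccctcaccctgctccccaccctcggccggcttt
Searches on both strands for CAAAGTCCA, CAAAGTTCA and CAAAGGTCA, spellings of the HNF4 element, found none of them in the 13 windows. Over all 35116 RefSeq windows of this length, 0.911% held 1 of these spellings. The CAAAG core, which is contained in all 3 spellings, was in 3 windows (CLDN2, CLDN4 and CLDN15), against 42.1% of all windows. These matches describe the letters only.

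Per length, CLDN4 led in 2 of the 3 control groups and CLDN1 in the other. In Panc10.05 controls CLDN4 was at 81.1 ± 2.27 CPM per kilobase of exon (SD, n = 2) and CLDN7 at 56.2 ± 4.57, followed by CLDN12 at 16.6 ± 1.13 and CLDN3 at 8.76 ± 0.738. CLDN23 at 5.10 ± 0.0359 and CLDN15 at 4.19 ± 0.169 came next, and CLDN1 was at only 0.755 ± 0.0166. The ranges of the neighbours in this order did not overlap.
In BxPC3 controls CLDN1 was highest at 79.0 ± 0.0965 CPM per kilobase, then CLDN7 at 55.9 ± 0.0568 and CLDN4 at 49.8 ± 0.0752, and CLDN3 was at 0.775 ± 0.147. The ranges of CLDN3 and its next neighbour in the order, CLDN15 (0.666 ± 0.021), overlapped.
In AsPC-1 controls CLDN4 was at 50.4 ± 5.79 CPM per kilobase, CLDN7 at 27.6 ± 4.52 and CLDN2 at 14 ± 1.08; CLDN1 followed at 11.8 ± 3.63, CLDN12 at 9.85 ± 1.93 and CLDN3 at 7.75 ± 2.69, and from CLDN2 to CLDN3 each gene overlapped its neighbour in this order. Thus the pore claudin CLDN2 was a major member in AsPC-1, while it had 0 counts in all 4 control libraries of the other lines, which allows up to 3 counts per library. The lines were normalised separately, so these levels stand side by side without a test.

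**Figure D1:**
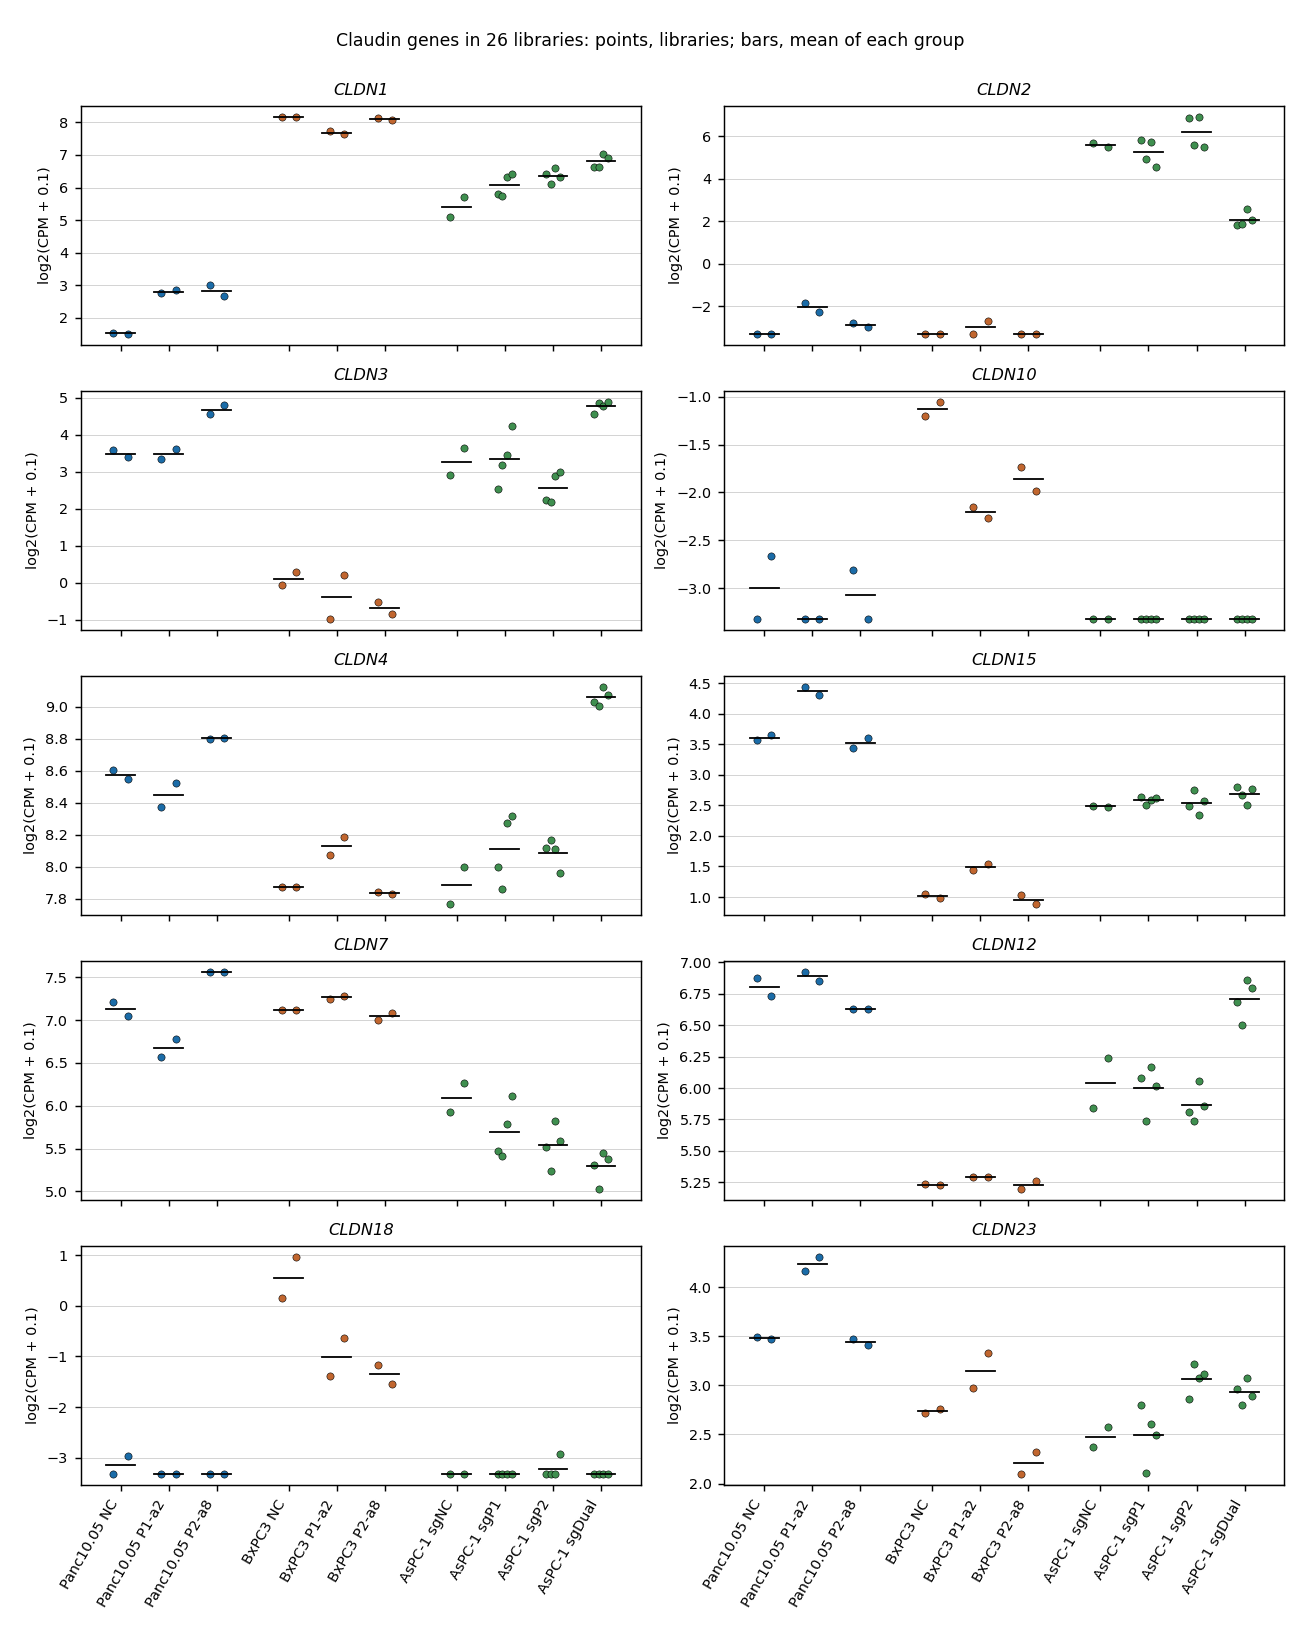
Level of each claudin gene as log2(CPM + 0.1) in the 26 libraries; points are libraries, grouped and coloured by cell line, and short bars are group means of the plotted values. CLDN2 stands high in AsPC-1 only and drops in sgDual, while CLDN18 and CLDN10 are clearly above the floor only in BxPC3 libraries.

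In Panc10.05 CLDN1 rose with both isoforms, and CLDN7 fell with P1-a2 and rose with P2-a8. CLDN3 rose only with P2-a8 by the direct test between the isoforms, while CLDN23 and CLDN15 were higher with P1-a2 than with P2-a8 or the control. Of the 7 members that passed the filter on low counts, 3 were higher and 1 lower with P1-a2 than with NC, where 62.0% of all tested genes passed the threshold of an adjusted p under 0.05. With P2-a8, 4 were higher and 1 lower, against 46.2% of all genes, and with 7 members neither count is read as particular to the claudins. In bulk RNA, fewer cells expressing a gene and less RNA per cell cannot be told apart.

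CLDN1, a core sealing claudin, was at 2.81 and 2.72 CPM in the GFP controls, at 6.62 and 7.15 CPM with P1-a2 and at 7.91 and 6.23 CPM with P2-a8. All 4 induced libraries were above both controls, and the isoforms overlapped. The rise was 2.49-fold with P1-a2 (log2 SE 0.15, adjusted p = 6.92e-10) and 2.57-fold with P2-a8 (log2 SE 0.15, adjusted p = 7.95e-10), and on the log2 scale the difference between the isoforms was -0.04 (SE 0.13, adjusted p = 0.815). CLDN1 remained a minor member here, at 0.892% of the summed per-length level of the 10 genes with P2-a8.
CLDN7, a sealing claudin of many glandular epithelia (chr17:7259903-7263983), was at 148 and 132 CPM in controls, 94.7 and 109 CPM with P1-a2 and 189 CPM in both P2-a8 libraries. The 3 groups did not overlap, with P1-a2 lowest and P2-a8 highest. It fell by 0.46 with P1-a2 (SE 0.07, adjusted p = 2.03e-07) and rose by 0.43 with P2-a8 (SE 0.07, adjusted p = 9.44e-07), each on the log2 scale. ELP5, which runs on the opposite strand and shares 38 exon bases with CLDN7, was 0.48 lower with P2-a8 (log2 fold change -0.48, adjusted p = 1.07e-06), opposite to CLDN7.
CLDN3 was at 11.8 and 10.5 CPM in controls, 10.0 and 12.2 CPM with P1-a2, and 23.6 and 27.5 CPM with P2-a8. The P1-a2 libraries overlapped the controls and both P2-a8 libraries were more than 2-fold above the mean of the controls. Its log2 fold change was 0.00 (SE 0.11, adjusted p = 0.991) with P1-a2 and 1.19 (SE 0.10, adjusted p = 1.7e-12) with P2-a8.
CLDN4, the most abundant member, was at 389 and 374 CPM in controls, 331 and 368 CPM with P1-a2 and 446 and 447 CPM with P2-a8. Its rise with P2-a8 was 0.23 (SE 0.06, adjusted p = 0.00157); with P1-a2 the log2 fold change of -0.12 did not pass (adjusted p = 0.0681), but did without NC replicate 2 (-0.15, adjusted p = 0.0358) or P1-a2 replicate 2 (-0.20, adjusted p = 0.0238).

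CLDN15, which forms sodium-permeable pores in the intestine, was at 21.7 and 19.7 CPM with P1-a2 against 11.8 and 12.5 CPM in controls and 10.8 and 12 CPM with P2-a8. CLDN23, a less studied member, was at 17.9 and 19.8 CPM with P1-a2 against 11.1 and 11 CPM in controls and 11 and 10.5 CPM with P2-a8. Both P1-a2 libraries lay above the 4 others for both genes. The rise with P1-a2 was 0.77 (SE 0.10, adjusted p = 4.62e-09) for CLDN15 and 0.77 (SE 0.10, adjusted p = 6.62e-09) for CLDN23, and with P2-a8 their log2 fold changes were -0.09 (adjusted p = 0.504) and -0.04 (adjusted p = 0.812).
CLDN12, which lacks the usual carboxy-terminal binding motif of claudins, was at 98.6 and 99.0 CPM with P2-a8 against 117 and 106 CPM in controls. The log2 fold change of -0.18 (adjusted p = 0.0186) was no longer past the threshold without NC replicate 1 (-0.10, adjusted p = 0.283) or without either P2-a8 library (adjusted p 0.0844 and 0.079). With P1-a2 CLDN12 was at 122 and 116 CPM, a log2 fold change of 0.08 (adjusted p = 0.244). CDK14, which shares exon bases with CLDN12 on the same strand, was at 10.8 and 12.5 CPM with P2-a8 against 16.6 CPM in both controls (-0.52, adjusted p = 3.38e-05), and its part in the CLDN12 count was not tested.
Directly between the isoforms 3 of the 7 members were higher with P1-a2 and 3 lower, against 46.9% of all genes. CLDN7 (log2 fold change -0.89, adjusted p = 6.7e-14), CLDN3 (-1.19, adjusted p = 1.26e-12) and CLDN4 (-0.35, adjusted p = 4.49e-06) were lower with P1-a2, and CLDN15 (0.86, adjusted p = 8.9e-10), CLDN23 (0.80, adjusted p = 5.55e-09) and CLDN12 (0.26, adjusted p = 0.000617) were higher. The isoform libraries also differed in doxycycline and in HNF4A level (11.8 against 37.6 CPM on average), and isoform and level cannot be told apart in this line.
CLDN2, CLDN10 and CLDN18 did not pass the filter in Panc10.05. CLDN2 had 7 and 5 counts with P1-a2, 2 and 1 with P2-a8 and 0 in both controls. CLDN10 had at most 2 counts and CLDN18 at most 1 count in any of the 6 libraries.

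**Figure D2:**
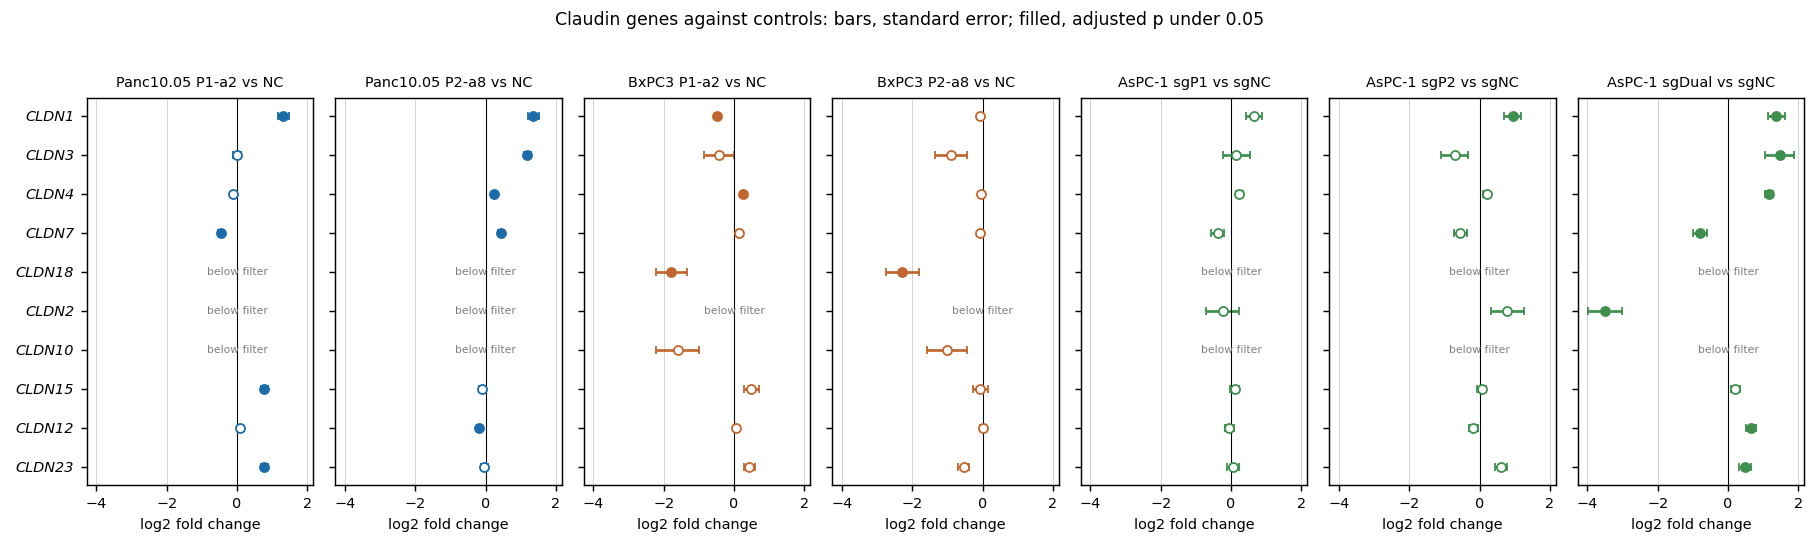
Log2 fold change of each claudin gene against the control group of its line (horizontal axis) in 7 comparisons; bars are standard errors, filled points had an adjusted p under 0.05, and "below filter" marks genes that were not tested. CLDN1 is to the right in both Panc10.05 panels and in sgDual, and to the left with P1-a2 in BxPC3.

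In BxPC3, where CLDN1 led per length in the controls, CLDN1 fell and CLDN4 rose with P1-a2, and with P2-a8 neither passed the test. CLDN18 was lower with both isoforms, from a low level. Of 9 members tested, 1 was higher and 2 were lower with P1-a2, against 32.0% of all genes; with P2-a8, 0 were higher and 1 was lower, against 6.99% of all genes.
CLDN1 was at 289 and 290 CPM in the empty-vector controls, 211 and 201 CPM with P1-a2 and 280 and 272 CPM with P2-a8. The P1-a2 libraries lay below the 4 others. It fell by 0.49 with P1-a2 (SE 0.05, adjusted p = 4.5e-05), with -0.07 (SE 0.05, adjusted p = 0.535) for P2-a8, and its share of the summed per-length level of the 10 genes was 29.8% with P1-a2 and 40.5% in controls.
CLDN4 was at 234 CPM in both controls, 269 and 291 CPM with P1-a2 and 229 and 227 CPM with P2-a8. The P1-a2 libraries were again apart from the others, here above them. It rose by 0.26 (SE 0.06, adjusted p = 0.00447) with P1-a2, with -0.04 (SE 0.06, adjusted p = 0.782) for P2-a8.
CLDN18 had 27 and 68 counts in controls (1.00 and 1.86 CPM), 9 and 20 with P1-a2 and 12 and 8 with P2-a8. All 4 induced libraries were below both controls, and the 2 controls were themselves apart. With P1-a2 this gave -1.79 on the log2 scale (SE 0.44, adjusted p = 0.0092), and with P2-a8 it gave -2.29 (SE 0.47, adjusted p = 0.0133). Without NC replicate 2 neither passed (-1.27, adjusted p = 0.142, and -1.77, adjusted p = 0.178), and without P1-a2 replicate 1 the P1-a2 value was -1.41 (adjusted p = 0.0608).
CLDN10, a pore claudin, had 9 and 14 counts in controls, 4 and 4 with P1-a2 and 7 and 5 with P2-a8. Its log2 fold changes of -1.60 (SE 0.61, adjusted p = 0.0691) and -1.01 (SE 0.57, adjusted p = 0.362) did not pass.

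CLDN23 was at 7.75 and 9.92 CPM with P1-a2, 6.47 and 6.67 CPM in controls and 4.18 and 4.90 CPM with P2-a8, so the 3 groups did not overlap. Against the controls its log2 fold changes of 0.43 with P1-a2 (SE 0.16, adjusted p = 0.0548) and -0.54 with P2-a8 (SE 0.16, adjusted p = 0.0815) did not pass. With the replicate number as a block, since the replicate numbers pair the libraries of this line by the check given under the processing, both did (0.43, adjusted p = 0.0135, and -0.53, adjusted p = 0.0154).
CLDN7 was at 152 and 156 CPM with P1-a2, 139 CPM in both controls and 128 and 136 CPM with P2-a8. Its log2 fold change of 0.14 with P1-a2 was not past the threshold (adjusted p = 0.0691) but was with the block (adjusted p = 0.0122). CLDN15 was at 2.60 and 2.81 CPM with P1-a2 against 1.97 and 1.89 CPM in controls (log2 fold change 0.49, adjusted p = 0.0935).
CLDN12 stayed between 36.5 and 39.1 CPM in the 6 libraries. CLDN3 was at 0.855 and 1.12 CPM in controls, 0.408 and 1.05 CPM with P1-a2 and 0.601 and 0.459 CPM with P2-a8, and neither log2 fold change passed (-0.42, adjusted p = 0.507, and -0.90, adjusted p = 0.296). CLDN2 had 2 counts in a single BxPC3 library and 0 in the other 5.
Directly between the isoforms, at the same doxycycline concentration, 3 of 9 members were higher with P1-a2 and 1 lower, against 22.5% of all genes. CLDN23 was 0.97 higher (SE 0.16, adjusted p = 0.00162), CLDN4 0.30 higher (SE 0.06, adjusted p = 0.00346), CLDN7 0.22 higher (SE 0.06, adjusted p = 0.0139) and CLDN1 lower (-0.42, SE 0.05, adjusted p = 0.000344). The CLDN7 call was lost without P1-a2 replicate 2 (adjusted p = 0.0567) or P2-a8 replicate 1 (adjusted p = 0.089).

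Whether the 2 induced lines responded differently was tested as an interaction over their 12 libraries, as the Panc10.05 log2 fold change minus that of BxPC3. In the main fit (TMM scaling, no replicate block) CLDN1, CLDN3, CLDN4 and CLDN7 gave all of the calls. CLDN12, CLDN15 and CLDN23 gave none there in any of the 3 contrasts. For P2-a8 against NC CLDN23 passed by edgeR with total counts only (0.54, adjusted p = 0.0378) and with the replicate block (0.49, adjusted p = 0.032). It did not pass in 10 of 13 alternatives. For P1-a2 against NC, 1 of 9 members was higher and 2 were lower in Panc10.05, against 36.4% of all genes. CLDN1 differed by 1.81 (SE 0.13, adjusted p = 2.35e-10), CLDN7 by -0.59 (SE 0.10, adjusted p = 3.5e-05) and CLDN4 by -0.37 (SE 0.08, adjusted p = 0.00117). Without BxPC3 P1-a2 replicate 2 the count was 5, with CLDN3 (1.30, adjusted p = 0.0245) and CLDN23 (0.54, adjusted p = 0.0301) added.
For P2-a8 against NC 4 of 9 were higher in Panc10.05 and 0 lower, against 23.5% of all genes. CLDN3 differed by 2.11 (SE 0.40, adjusted p = 0.000507), CLDN1 by 1.43 (SE 0.13, adjusted p = 3.59e-08), CLDN7 by 0.51 (SE 0.10, adjusted p = 0.000362) and CLDN4 by 0.27 (SE 0.08, adjusted p = 0.024). The CLDN4 value did not pass without any 1 of 5 libraries (BxPC3 NC replicates 1 and 2, BxPC3 P2-a8 replicate 2, Panc10.05 NC replicate 2 and Panc10.05 P2-a8 replicate 1; adjusted p 0.0505 to 0.0851).
For P1-a2 against P2-a8, 1 was higher and 3 were lower, against 22.3% of all genes. CLDN7 differed by -1.10 (SE 0.10, adjusted p = 2.28e-08) and CLDN4 by -0.64 (SE 0.08, adjusted p = 7.26e-06): both were higher with P2-a8 in Panc10.05 and higher with P1-a2 in BxPC3. CLDN3 differed by -1.68 (SE 0.41, adjusted p = 0.0056), a value that was -0.81 (adjusted p = 0.327) without BxPC3 P1-a2 replicate 2, where 2 of the 4 calls were left. CLDN1 differed by 0.38 (SE 0.12, adjusted p = 0.021), which was not past the threshold without any 1 of 4 libraries (BxPC3 P1-a2 replicate 2, BxPC3 P2-a8 replicate 1, Panc10.05 P1-a2 replicate 2 and Panc10.05 P2-a8 replicate 2; adjusted p 0.0559 to 0.293). CLDN23 was higher with P1-a2 than with P2-a8 in both lines, and its interaction was -0.15 (SE 0.18, adjusted p = 0.62). Doxycycline concentration, control construct (GFP or empty vector) and sequencing project, as read from the label prefix, changed together with the line. Their parts cannot be told apart from that of the line. HNF4A level differed between the lines too, and its part was not tested.

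**Figure D3:**
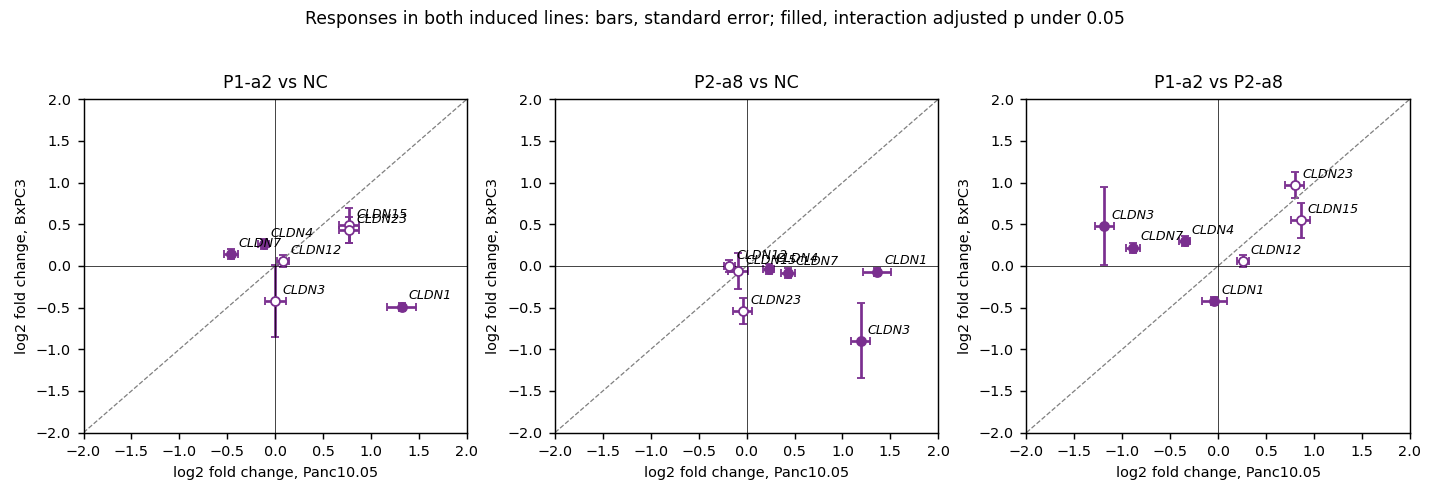
Log2 fold change in Panc10.05 (horizontal axis) against BxPC3 (vertical axis) for the 7 claudin genes tested in all 3 lines, in 3 contrasts; bars are standard errors, the dashed line marks equal responses, and filled points had an interaction adjusted p under 0.05. CLDN3, CLDN4 and CLDN7 lie in the upper left quadrant in the contrast of P1-a2 with P2-a8, while CLDN23 and CLDN15 lie near the diagonal.

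In AsPC-1, where HNF4A was repressed rather than induced, the claudin mix changed most in sgDual. CLDN2 and CLDN7 fell and CLDN1, CLDN3, CLDN4, CLDN12 and CLDN23 rose. Of 8 members tested 5 were higher and 2 lower than with sgNC, against 35.6% of all genes, a count over 8 genes in shared libraries that is given without a test. All 4 sgDual libraries lay outside the range of the 2 sgNC libraries for each of these 7 genes. The median log2 fold change of the 8 members was 0.56 and that of all tested genes 0.00.
CLDN2 was at 50.4 and 45.2 CPM with sgNC, at 3.44 and 5.86 CPM with sgDual2 and at 3.55 and 4 CPM with sgDual3. Its log2 fold change was -3.50 (SE 0.48, adjusted p = 0.000252), and its share of the summed per-length level of the 10 genes was 11.3% ± 2.45 (SD, n = 2) with sgNC and 0.602% ± 0.125 (n = 4) with sgDual. CLDN2 was also lower in sgDual than in sgP1 (-3.27, SE 0.44, adjusted p = 0.000178) and than in sgP2 (-4.29, SE 0.45, adjusted p = 1.68e-05).
CLDN4 was at 218 and 256 CPM with sgNC and between 514 and 558 CPM with sgDual. Its log2 fold change was 1.17 (SE 0.12, adjusted p = 6.2e-06), and it reached 55.7% ± 1.53 (SD, n = 4) of the summed per-length level, from 40.1% ± 1.05 (n = 2). CLDN1 was at 33.9 and 52.8 CPM with sgNC and between 98.2 and 131 CPM with sgDual (log2 fold change 1.37, SE 0.24, adjusted p = 0.00081).
CLDN3 was at 7.45 and 12.3 CPM with sgNC and between 23.5 and 29.6 CPM with sgDual (1.47, SE 0.41, adjusted p = 0.0144). CLDN12 was at 57.2 and 75.6 CPM with sgNC and between 90.7 and 116 CPM with sgDual (0.66, SE 0.14, adjusted p = 0.00191). GTPBP10, which shares 347 exon bases with CLDN12 on the same strand, was at 48.8 ± 2.94 CPM (n = 2) with sgNC and 42.5 ± 2.41 CPM (n = 4) with sgDual, and did not pass (-0.20, adjusted p = 0.133). CDK14, which shares 201 exon bases with CLDN12 on the same strand, rose with it (log2 fold change 2.26, SE 0.55, adjusted p = 0.00506), from 4 and 2 counts with sgNC to between 13 and 22 counts with sgDual, and its part in the CLDN12 count was not tested.
CLDN7 fell from 60.7 and 76.6 CPM with sgNC to between 32.5 and 43.7 CPM with sgDual (-0.80, SE 0.19, adjusted p = 0.00544). ELP5 fell with it, from 62.9 and 56.6 CPM to between 39.2 and 41.8 CPM (-0.56, adjusted p = 1.57e-05), and its part in the CLDN7 count was not tested. CLDN23 was at 5.07 and 5.88 CPM with sgNC and between 6.86 and 8.35 CPM with sgDual (0.47, SE 0.17, adjusted p = 0.0425), and CLDN15 at 5.54 and 5.46 CPM and between 5.58 and 6.86 CPM (0.21, adjusted p = 0.228).
Without sgNC replicate 1, 4 of the 7 calls were left: CLDN3 (1.15, adjusted p = 0.169), CLDN23 (0.36, adjusted p = 0.298) and CLDN12 (0.47, adjusted p = 0.0621) did not pass. CLDN7 was lost without sgNC replicate 2 (-0.62), and CLDN3 with no sgDual3 libraries (adjusted p = 0.0595). CLDN23 was also lost without sgNC replicate 2 (log2 fold change 0.58). Its call was lost too without sgDual2 replicate 1 or 2 (adjusted p = 0.0709 and 0.0927) or sgDual3 replicate 2 (0.0603). The same held with no sgDual2 libraries (0.188), no sgDual3 libraries (0.0572) and no filter on low counts (0.0548). CLDN23 thus did not pass in 8 of 14 alternatives.

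With the single-promoter guides few members moved. In sgP1 none of 8 members passed by edgeR (1 at an unadjusted p under 0.05, 0 by DESeq2), against 0.265% of all genes. CLDN1 was between 53.5 and 85.2 CPM in the 4 sgP1 libraries, all above the sgNC values (log2 fold change 0.66, SE 0.23, adjusted p = 0.366), and passed with the replicate block (0.66, adjusted p = 0.0229).
In sgP2, 1 of 8 passed, CLDN1, against 3.42% of all genes. It was between 69.1 and 97.8 CPM (0.94, SE 0.24, adjusted p = 0.0486), and the call was lost without any 1 of the 2 sgNC or 4 sgP2 libraries (adjusted p 0.0572 to 0.382; 0.65 without sgNC replicate 1). With the replicate block CLDN7 (-0.55, adjusted p = 0.0129) and CLDN23 (0.61, adjusted p = 0.0466) also passed.
Between sgP2 and sgP1, 1 of 8 passed, CLDN23, against 4.30% of all genes (0.56, SE 0.13, adjusted p = 0.0293). That call was lost without any 1 of 5 libraries (adjusted p 0.0524 to 0.093: sgP1J replicates 1 and 2, sgP2D replicate 2, sgP2G replicates 1 and 2). CLDN3 was between 4.41 and 7.83 CPM in sgP2 and between 5.73 and 18.8 CPM in sgP1 (-0.86, adjusted p = 0.174; -0.84, adjusted p = 0.0433 with the block; -1.09, adjusted p = 0.0389 without sgP1E replicate 1).
Against sgP1, sgDual was higher for 5 of 8 members and lower for 1, against 38.3% of all genes, and against sgP2 higher for 3 and lower for 1, against 46.4%. CLDN4 rose by 0.93 (SE 0.09, adjusted p = 3.7e-06) over sgP1 and by 0.97 (SE 0.09, adjusted p = 1.34e-06) over sgP2. CLDN3 rose by 1.31 (SE 0.31, adjusted p = 0.00582) and 2.17 (SE 0.33, adjusted p = 0.000195) over these groups. CLDN12 rose by 0.71 (SE 0.11, adjusted p = 0.000184) and 0.85 (SE 0.11, adjusted p = 2.4e-05).
CLDN1 (0.71, adjusted p = 0.00812) and CLDN23 (0.42, adjusted p = 0.0227) were higher in sgDual than in sgP1; against sgP2 their log2 fold changes were 0.43 (adjusted p = 0.0693) and -0.14 (adjusted p = 0.408). The CLDN23 call over sgP1 was lost with no sgP1J libraries (0.23, adjusted p = 0.164) or no sgDual2 libraries (0.33, adjusted p = 0.176), and also without sgDual2 replicate 2 (adjusted p = 0.0683) or sgP1J replicate 1 (adjusted p = 0.0608). With the block CLDN7 was lower than in sgP1 (-0.41, adjusted p = 0.00297) and in sgP2 (-0.25, adjusted p = 0.038), and CLDN1 higher than in sgP2 (0.42, adjusted p = 0.00201). These AsPC-1 comparisons share groups, so they are not independent of each other.

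**Figure D4:**
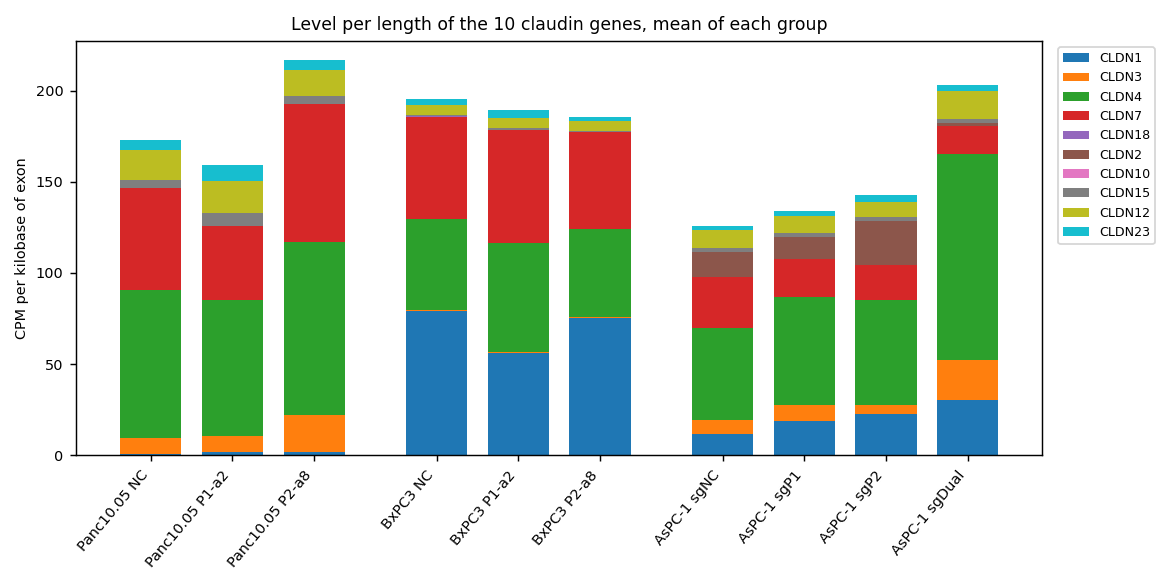
Mean CPM per kilobase of exon of the 10 claudin genes, stacked, for each group (vertical axis, linear from 0). The stack is led by CLDN4 and CLDN7 in Panc10.05 and by CLDN4 in AsPC-1. In BxPC3 CLDN1 leads with NC and P2-a8. With P1-a2 in BxPC3 the order is CLDN7 (61.7), CLDN4 (59.6) and CLDN1 (56.3 CPM per kilobase). In AsPC-1 the CLDN2 layer nearly vanishes in sgDual, and the total goes from 126 with sgNC to 204 CPM per kilobase.

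CLDN2 was also the member that most separated guides to the same promoter. It was at 55.7 and 52.9 CPM with sgP1E and at 29.9 and 23.4 CPM with sgP1J, and at 116 and 121 CPM with sgP2D and at 48.5 and 45.1 CPM with sgP2G. The 2 libraries of each guide lay close together and the guides of a pair did not overlap. sgP1E was above sgP1J by 1.03 (log2, SE 0.16, adjusted p = 0.00115), where 14.5% of all genes differed, and sgP2D above sgP2G by 1.34 (SE 0.16, adjusted p = 0.000589), where 1.69% differed. In each pair it was the single member of 8 that passed, and with the block CLDN3 (-0.75, adjusted p = 0.0439), CLDN23 (0.42, adjusted p = 0.0253) and CLDN12 (0.25, adjusted p = 0.0101) also differed between sgP1E and sgP1J.
Between sgDual2 and sgDual3 none of 8 members passed by edgeR (0 at an unadjusted p under 0.05, 0 by DESeq2), against 0.883% of all genes. HNF4A itself was at 144 and 146 CPM with sgP1E and at 118 and 109 CPM with sgP1J, and at 93.8 and 91.4 CPM with sgP2D and at 84.0 and 76.8 CPM with sgP2G. The highest CLDN2 level was that of sgP2D, whose HNF4A level was below that of sgNC and both sgP1 guides. In the sgP1 pair and in the sgP2 pair the guide with more HNF4A also had more CLDN2. Between sgDual2 and sgDual3 the libraries overlapped in both genes. The part of HNF4A level in the CLDN2 level was not tested. With no sgP2D libraries the sgP2 mean of CLDN2 was close to that of sgNC (log2 fold change -0.03, adjusted p = 0.984), against 0.79 (SE 0.47, adjusted p = 0.435) with them.

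CLDN2 (chrX:106900164-106930861, plus strand) lies inside the span of MORC4, a chromatin protein gene on the opposite strand, and the 2 genes share 0 exon bases in GENCODE v29. In AsPC-1 MORC4 moved the same way in sgDual and between the sgP2 guides. It was at 96.9 and 80.0 CPM with sgNC, 158 and 153 CPM with sgP2D, 89.6 and 91.7 CPM with sgP2G, and between 42.3 and 51.9 CPM with sgDual. Its log2 fold change was -0.94 in sgDual against sgNC (SE 0.23, adjusted p = 0.00658) and 0.78 in sgP2D against sgP2G (SE 0.12, adjusted p = 0.00277). Between sgP1E and sgP1J it was 0.30 (SE 0.12, adjusted p = 0.109). Between sgDual2 and sgDual3 MORC4 was at -0.21 (adjusted p = 0.733) and CLDN2 at 0.30 (adjusted p = 0.857). In the other lines MORC4 was between 25.4 and 33.1 CPM while CLDN2 had at most 7 counts. RIPPLY1, the other opposite-strand neighbour, shares 341 exon bases with CLDN2 and had at most 2 counts in every library. The strand setting of the authors' counting is not given in the sources used here, and the part of MORC4 reads in the CLDN2 counts, or the reverse, was not tested.

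**Figure D5:**
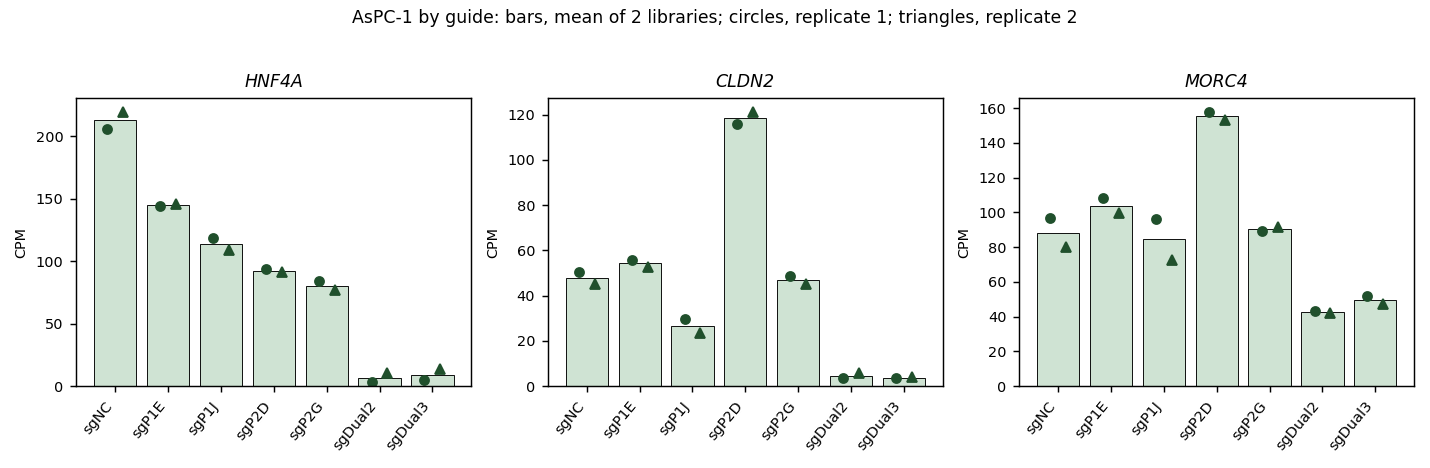
CPM of HNF4A, CLDN2 and MORC4 in AsPC-1 by guide (linear axes from 0); bars are means of 2 libraries, circles replicate 1 and triangles replicate 2. CLDN2 and MORC4 are highest with sgP2D and lowest with the sgDual guides, while HNF4A is highest with sgNC.

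Genes that work with claudins were counted from lists of known junction and regulator genes. Of 33 tight junction partners (occludin and other junction membrane proteins, the scaffold proteins that anchor them and their kinases), 30 were tested in Panc10.05, where 17 were higher and 8 lower with P1-a2 (62% of all genes called) and 14 higher and 4 lower with P2-a8 (46.2% of all genes). In BxPC3 31 were tested, with 12 higher and 3 lower with P1-a2 (32% of all genes) and 5 higher and 2 lower with P2-a8 (6.99%). In AsPC-1 26 were tested, with 4 higher and 5 lower in sgDual (35.6% of all genes), 1 higher and 2 lower in sgP2 (3.42%), and 0 in sgP1 (0.265%) by edgeR (5 at an unadjusted p under 0.05). The median log2 fold change of the partners was 0.31 with P1-a2 and 0.20 with P2-a8 in Panc10.05, 0.11 and 0.06 in BxPC3, and -0.04, 0.03 and 0.01 in sgP1, sgP2 and sgDual, where that of all genes lay between -0.01 and 0.02.
MARVELD3, a relative of occludin in the junction membrane, rose with P1-a2 in both induced lines, in Panc10.05 by 1.51 (SE 0.08, adjusted p = 1.22e-19), and the BxPC3 value was 1.43 (SE 0.09, adjusted p = 6.48e-07). In Panc10.05 the other largest rise with P1-a2 was ARHGEF2, a junction-associated exchange factor (1.11), and the largest falls were OCLN, which encodes occludin (-0.60, adjusted p = 1.14e-09), and PRKCZ, a polarity kinase (-0.55). In BxPC3 the scaffold gene MAGI1 rose by 1.49, and the calcium channel gene TRPV4 (-1.49) and AMOTL2 (-0.33, adjusted p = 0.017) fell. In sgDual WNK4, a kinase known to act on paracellular chloride passage, fell most (-2.48, SE 0.28, adjusted p = 3.23e-05), followed by CGN, which encodes the junction plaque protein cingulin (-0.88, adjusted p = 5.29e-06). AMOTL1 (0.72, adjusted p = 0.0104) and PRKCI (0.55, adjusted p = 0.00651) rose there.

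Of 24 regulators known for epithelial or claudin genes, 12 were higher and 5 lower of 19 tested with P1-a2 in Panc10.05 (62% of all genes called), and 14 higher and 1 lower with P2-a8 (46.2%). In BxPC3 6 were higher and 8 lower of 21 with P1-a2 (32% of all genes), and 2 higher and 4 lower with P2-a8 (6.99%). In AsPC-1 5 were higher and 5 lower of 20 in sgDual (35.6% of all genes). By edgeR 0 passed in sgP1 (0.265% of all genes) and 0 in sgP2 (3.42%), with 4 and 5 at an unadjusted p under 0.05. SNAI2, a repressor of epithelial genes, rose in Panc10.05 with P1-a2 from 27.1 ± 1.00 to 81.8 ± 7.61 CPM (SD, n = 2 each; adjusted p = 4.78e-22), as did GRHL1 (1.09), while the splicing factor gene ESRP1 (-0.80, adjusted p = 1.14e-14) and VDR, the vitamin D receptor (-0.64), fell. In BxPC3 with P1-a2 GRHL3 (0.73, adjusted p = 0.00433) and VDR (0.62) rose and the epithelial factor genes ELF3 (-0.85) and KLF5 (-0.84) fell. In sgDual GRHL3 rose by 1.63 (adjusted p = 0.00321) and ELF3 by 0.71 (adjusted p = 0.0488), and VDR (-1.45, adjusted p = 0.00451) fell.
Among 20 adherens junction and desmosome genes, 7 were higher and 6 lower of 18 with P1-a2 in Panc10.05 (62% of all genes called) and 12 higher and 2 lower with P2-a8 (46.2%). In BxPC3 9 were higher and 5 lower of 20 with P1-a2 (32% of all genes), and 5 higher and 0 lower with P2-a8 (6.99%). In AsPC-1 4 were higher and 2 lower of 19 in sgDual (35.6% of all genes), and 0 higher and 4 lower in sgP2 (3.42%). By edgeR 0 passed in sgP1 (0.265% of all genes), with 3 at an unadjusted p under 0.05.

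Of the 14 other claudin genes, 2 were tested in Panc10.05, 5 in BxPC3 and 4 in AsPC-1, and those below were named after their values were seen. CLDN9 in Panc10.05 averaged 9.37 ± 0.226 CPM in controls, 5.58 ± 0.0713 with P2-a8 and 2.20 ± 0.0918 with P1-a2 (SD, n = 2 each), which gave -2.09 on the log2 scale with P1-a2 (SE 0.15, adjusted p = 3.39e-16) and -0.75 with P2-a8 (SE 0.13, adjusted p = 6.01e-06). CLDN6 had 2 and 4 counts in Panc10.05 controls and 9 and 18 with P1-a2 (1.96, SE 0.69, adjusted p = 0.0125). In BxPC3 with P1-a2 CLDN8 (-1.67, SE 0.31, adjusted p = 0.00186), CLDN16 (-0.98, SE 0.21, adjusted p = 0.00409) and CLDN22 (-2.09, SE 0.71, adjusted p = 0.0441) fell. CLDN19 had 0 counts in both BxPC3 controls and 20 and 38 counts with P1-a2 (adjusted p = 0.000582). In sgDual 0 of 4 passed by edgeR (0 at an unadjusted p under 0.05), against 35.6% of all genes. Of all genes, 62% were called with P1-a2 and 46.2% with P2-a8 in Panc10.05, and 32% with P1-a2 in BxPC3. With so few genes tested, none of these counts is read as particular to the claudins.

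Over the 26 libraries, with log2 CPM centred within each line, the members most alike were CLDN4 and CLDN12 (Pearson r = 0.828) and the neighbours CLDN3 and CLDN4 (r = 0.788), followed by CLDN3 and CLDN12 (r = 0.683) and CLDN15 and CLDN23 (r = 0.67). CLDN7 had its most negative value with CLDN15 (r = -0.519). The pooled values do not hold for every contrast within a line. In Panc10.05, between P1-a2 and P2-a8, CLDN12 was higher (log2 fold change 0.26) while CLDN3 (-1.19) and CLDN4 (-0.35) were lower. In sgDual against sgNC CLDN12 (0.66), CLDN3 (1.47) and CLDN4 (1.17) all rose. The genes most like a member were searched among the 10675 that passed the filter in all 3 lines with a mean of at least 5 CPM. Those most like 6 of the members were ATG13 and BNIP2 for CLDN12 (r = 0.959 and 0.933), LINC00342 and PLXNA3 for CLDN4 (0.944 and 0.937), and THBS3 and SECTM1 for CLDN3 (0.917 and 0.916). They were ITM2C and GCNT1 for CLDN1 (0.889 and 0.873), DMWD and CHKA for CLDN15 (0.873 and 0.868), and ACACA and ERBB3 for CLDN7 (0.785 and 0.778). The values describe libraries that share their groups and, within a line, their sequencing; for BNIP2 the value within BxPC3 alone was -0.933 and for ACACA -0.52, opposite to the pooled values.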

How the data were processed

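RNA was counted per gene in 26 libraries. Per the submitters' processing notes the deposited counts came from reads processed with STAR 2.7.9a, cutadapt 1.16, featureCounts 1.6.3 and DESeq2 1.36.0 on GRCh38; the order of these steps, the annotation and the strand setting are not given in the sources used here. Per the labels, the kit keeps strand and selects poly(A) RNA. The files hold raw whole-number counts deposited by the authors, 1 table per cell line.

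Identifiers were matched to symbols for 99.88%, 99.88% and 99.91% of rows of the Panc10.05, BxPC3 and AsPC-1 tables. Each table was fitted with edgeR 4.0.16 (R 4.3.3; filterByExpr, TMM scaling, robust quasi-likelihood F test) and p-values were adjusted by Benjamini-Hochberg over all genes tested, with a threshold of 0.05. Adjusted p in the text are from this test unless another is named. Fold changes are log2, with a standard error of the fold change divided by the root of F. Interactions used the 12 induced libraries in 1 fit; guides used 7 groups. CPM use TMM factors within a line; levels per kilobase divide by the exon union of GENCODE v29. Where a library had no reads, 3 counts were taken as the limit; it covers counting error only.

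Correlations of replicate deviations between groups lay between -0.0536 and 0.0506 in Panc10.05 (0 of 3 group pairs over 0.1), between 0.323 and 0.537 in BxPC3 (3 of 3) and between 0.257 and 0.748 in AsPC-1 (21 of 21). By this check the labelled replicate numbers paired the libraries in BxPC3 and AsPC-1 and not in Panc10.05. The main tests carried no block for this pairing, and the replicate block was fitted only as an alternative. Replicates differed by more than counting noise (chi-square per degree of freedom at least 3.82). Alternatives were DESeq2 1.42.0, other scalings, no filter, a replicate block, fewer groups and each library or guide left out. The scripts were tested on simulated data. The members and lists were chosen with earlier results of these data known. Named list genes are the 2 largest rises and 2 largest falls among called genes of at least 5 CPM, in the tight junction partner and regulator lists. A few genes that these rules select are not reported here.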

Additional observations from a re-analysis of the deposited data

Results flagged for a closer look

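Single libraries that stand apart were looked for by Dixon's test at the 95% level in sgP1, sgP2 and sgDual, the groups of 4 libraries, for the 8 members tested in AsPC-1, and 0 of these 24 sets held one. The groups of 2 libraries (sgNC and all of Panc10.05 and BxPC3) cannot be examined in this way. The response to the same isoform differed between Panc10.05 and BxPC3, by the interaction term of edgeR's quasi-likelihood test, in 11 cases: 3 of 9 members for P1-a2 against NC (36.4% of all genes), 4 of 9 for P2-a8 against NC (23.5%) and 4 of 9 for P1-a2 against P2-a8 (22.3%). For P1-a2 against NC the Panc10.05 log2 fold change minus that of BxPC3 was 1.81 for CLDN1, -0.59 for CLDN7 and -0.37 for CLDN4. For P2-a8 against NC it was 1.43 for CLDN1, 2.11 for CLDN3, 0.51 for CLDN7 and 0.27 for CLDN4. For P1-a2 against P2-a8 it was 0.38 for CLDN1, -1.68 for CLDN3, -1.10 for CLDN7 and -0.64 for CLDN4. The lines differ in starting level too: CLDN1 controls averaged 2.77 CPM in Panc10.05 and 289 CPM in BxPC3, and CLDN3 controls 11.2 and 0.988 CPM. The part of starting level in these differences was not tested.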

How the results depend on the processing

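Of the values for single members that carry a direction, 1243 kept direction and side of the threshold under the alternatives, 52 dropped below it, 39 passed it and 5 reversed. The reversals were CLDN3 in BxPC3 P1-a2 against P2-a8 without P1-a2 replicate 2 (-0.37; up to 0.99 without another library), CLDN12 in sgP2 without sgNC replicate 2 (0.02; down to -0.38), CLDN2 in sgP2 with no sgP2D libraries (-0.03), CLDN3 in the P1-a2 interaction without BxPC3 P1-a2 replicate 1 (-0.07; up to 1.30) and CLDN2 between sgDual2 and sgDual3 without sgDual2 replicate 2 (-0.14; up to 0.64); none of these was called. Members closer to 0 than their SE, or at the floor in a line, were given no direction. Counts of members called moved with the replicate block to 5 (BxPC3 P1-a2), 2 (BxPC3 P2-a8), 1 (sgP1), 3 (sgP2), 2 (sgP2 against sgP1) and 4 (sgP1E against sgP1J); the replicate block changed no call in Panc10.05, where the numbers do not pair, and added CLDN23 to the P2-a8 interaction (0.49, adjusted p = 0.032). Without the filter they were 2 (BxPC3 P2-a8), 0 (sgP2) and 2 (sgP1E against sgP1J). With only both groups fitted they were 2 (sgP2) and 0 (sgP2 against sgP1), and DESeq2 gave 2 in sgP2. With no sgP1E libraries sgP2 against sgP1 gave 3, with no sgP1J 0 and with no sgP2D 0; sgP2 against sgNC gave 0 with no sgP2D and 0 with no sgP2G. Leaving out 1 library gave 0 to 1 (BxPC3 P2-a8 and sgP2), 0 to 2 (sgP2 against sgP1), 4 to 7 (sgDual), 3 to 5 and 2 to 4 (interactions of P1-a2 with NC and with P2-a8) and 1 to 2 (sgP1E against sgP1J). Some values passed in alternatives only: CLDN7 in sgDual against sgP1 (adjusted p = 0.0311 by DESeq2, 0.047 by total counts) and CLDN1 in sgDual against sgP2 (0.0381 by DESeq2, 0.0478 without sgP2D replicate 2). Counts of all genes called ranged over the alternatives from 1 to 1242 for sgP1 (45 as reported), 57 to 1103 for sgP2 (581), 189 to 2764 for sgP2 against sgP1 (731), 2775 to 7591 for sgDual (6048), 4320 to 7123 for sgDual against sgP1 (6505), 495 to 2886 for BxPC3 P2-a8 (1232), 2538 to 5992 for BxPC3 P1-a2 against P2-a8 (3963), 1484 to 4616 for sgP1E against sgP1J (2467), 135 to 778 for sgP2D against sgP2G (288) and 53 to 558 for sgDual2 against sgDual3 (150). With total counts the share of higher calls went from 37.8% to 47.9% in sgP1 and from 48.5% to 59.1% in sgP2, and from 61.5% to 51.8% in BxPC3 P2-a8. No scaling moved the median of all genes by over 0.1. The cause of these shifts was not tested. With 2 libraries a group, a control library left out leaves 1, which is assumed to vary like the others; members under about 3 counts a library (CLDN2, CLDN10 and CLDN18 in some lines) are limited by depth.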
